A study of Saccharomyces cerevisiae with 109 samples.

Results

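The genes described here were the 34 cytosolic translation factor genes of Saccharomyces cerevisiae, chosen by systematic name from the 6297 genes of the deposited table: 24 genes for initiation factors, 8 for elongation factors and 2 for release factors. All 34 were in the table, and each was measured on between 73 and 109 of the 109 two-colour arrays, which compared RNA from 2 cultures. Wild-type cells (BY4741) and cells lacking the histone deacetylase gene RPD3 (rpd3Δ) were followed through a heat shock from 25 to 37°C. They were also exposed to oxidative stress with H2O2 at 0.4 mM and to NaCl (0.75 M in the culture labels, 0.7 M in the array descriptions). Each of these arrays set a stressed culture against unstressed cells of the same strain. Stress relief was a shift from 37 to 25°C. Its arrays were read as setting the shifted culture against cells of the same strain at 37°C, the starting point in the study. At 30 min of H2O2 there were 8 wild-type arrays, 3 each of rpd3Δ, pho23Δ (lacking a subunit of the large Rpd3 complex, Rpd3L), rco1Δ (lacking a subunit of the small complex, Rpd3S), msn2Δ msn4Δ (lacking both general stress activators) and msn2Δ msn4Δ rpd3Δ, 4 of ume6Δ (lacking the DNA-binding partner of Rpd3L), and 3 each of strain H4KQ, whose histone H4 tail lysines were changed to glutamine, and its control NSY429. A further 3 arrays set unstressed rpd3Δ cells against unstressed wild-type cells. Single arrays or a single course followed plasmid-borne RPD3 alleles and trichostatin A, the latter beside its solvent DMSO. Cells were grown in rich medium, apart from those carrying plasmids, which were grown in synthetic medium without leucine, and per the study's methods rpd3Δ cells grew more slowly than wild-type cells. By label, H2O2 and NaCl cultures were kept at 30°C, and the rpd3Δ cells of heat-shock course 2 started at 30°C, not 25°C.

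Initiation factors bring the small ribosomal subunit, the initiator tRNA and the mRNA cap together: the eIF4 group binds the cap and unwinds the leader, eIF2 carries the initiator tRNA as a GTP complex, eIF2B recharges eIF2 with GTP and is the step that the Gcn2 kinase shuts down in starved cells, and eIF3 scaffolds the whole assembly. Elongation factors then deliver aminoacyl-tRNA (eEF1), move the ribosome along (eEF2, and in fungi eEF3) and help form difficult peptide bonds (eIF5A), and release factors end the chain at stop codons. In budding yeast, genes for the protein synthesis machinery are known to be repressed together, and transiently, when cells meet acute stress.

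Values are log2 ratios of stressed over unstressed cells, so that 1 is a doubling on the log2 scale. Which culture is on top was not stated in the table. Arrays of the same strain with opposite dyes correlated positively, which shows only that they share a direction. The correlations were 0.691 to 0.96 among H2O2 replicates, 0.375 to 0.38 among unstressed arrays and as low as 0.242 between heat-shock arrays of unlike times. RPD3 itself read -2.57 on the 1 unstressed array that measured it, the third, which bears on the unstressed comparison only. The direction of the stressed arrays was taken as likely and was not tested. A gene was tested where at least 80% of the arrays of a comparison measured it, and it was called at a limma adjusted p (Benjamini-Hochberg over all genes tested) below 0.01 in wild-type cells or 0.05 between strains. Between 4288 and 6115 genes were measured per array, and array medians ran from -0.13 to 0.16. Wild-type replicate 8 of the H2O2 arrays stood apart: its values correlated at 0.834 with the mean of the other wild-type arrays, against 0.898 to 0.969 for those 7, and the median of the translation factors on it was -0.56, against -1.67 to -1.12. Ribosomal protein genes (median -1.004 there, against -3.23 to -1.60) and ribosome biogenesis genes (-1.08, against -3.46 to -2.25) were weaker on it too. Each H2O2 count of called members is therefore given without it where it moves. Counts of members whose strains did not overlap include it.

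Some factors are encoded by pairs of genes whose proteins are identical, and spots for such genes may not tell the transcripts apart. TIF1 (YKR059W) and TIF2 (YJL138C), which both encode the helicase eIF4A, differed by at most 0.5 log2 units on 86 of the 87 arrays that measured both. TEF1 (YPR080W) and TEF2 (YBR118W), both encoding eEF1A, did so on 54 of 57 arrays, and EFT1 (YOR133W) and EFT2 (YDR385W), both encoding eEF2, on 90 of 93. The eIF4G genes TIF4631 (YGR162W) and TIF4632 (YGL049C), whose proteins are related but not identical, lay within 0.5 of each other on 26 of 107 arrays only, and differed by as much as -2.96.

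In wild-type cells at 30 min of H2O2, translation factor transcripts fell almost throughout. Of the 30 members tested, 28 were lower and none higher, against 33.2% of all 5173 genes tested that were called lower, and the median change over members was -1.25, against 0.02 over all genes. NIP1 (YMR309C), which encodes a core subunit of eIF3, ranged from -2.58 through a median of -2.23 to -1.46 on 8 arrays, and its mean of -2.10 (SE 0.12) had an adjusted p of 1.14e-14. EFB1 (YAL003W), the nucleotide exchange factor of eEF1A, ranged from -2.84 through -2.11 to -0.84 on the 7 arrays that measured it (mean -2.03, SE 0.24, adjusted p = 2.07e-08). TIF4631, the main eIF4G gene, ranged from -2.47 through -1.97 to -1.29 (mean -1.94, SE 0.14, adjusted p = 9.88e-13). These 3 were below 0 on every array that measured them, and the weakest value of each was that of replicate 8.

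The fall was unequal among roles. All 5 elongation factors tested fell, with a median of -1.61 over genes, and all 5 eIF2B subunits fell, with a median of -0.97 and a range of -1.004 (GCD6, YDR211W) to -0.50 (GCD1, YOR260W). The eIF4 group had 4 of 5 genes lower and a median of -1.73. The start-site and eIF2 factors (7 of 7, median -1.23), eIF3 (5 of 6, median -1.15) and the release factors (2 of 2, median -1.26) lay between elongation and eIF2B. Among the start-site and eIF2 factors, the eIF2 subunits GCD11 (gamma), SUI3 (beta, YPL237W) and SUI2 (alpha) changed by -1.85, -1.24 and -0.67, and SUI1 (YNL244C), encoding the start-codon scanning factor eIF1, by -1.75. These differences among roles are given as a description and were not tested. The 2 members not called were TIF4632, with 0.04 (SE 0.07, n = 8, adjusted p = 0.656), and HCR1 (YLR192C), the loosely bound eIF3j subunit, with -0.20 (SE 0.10, n = 8, adjusted p = 0.0743). TIF4632 spanned only -0.05 to 0.16 over the 8 arrays, while its paralogue TIF4631 never rose above -1.29. For comparison, the 132 ribosomal protein genes tested had a median of -2.19 and 24 ribosome biogenesis genes one of -2.52, with every gene of both lists called lower. TEF1, TEF2, TIF1 and YEF3 (YLR249W) were measured on too few arrays to be tested here. On the arrays that did measure them, the wild-type medians were -1.56 for TEF1 (n = 4), -1.59 for TEF2 (n = 7), -1.97 for TIF1 (n = 4) and -2.46 for YEF3 (n = 5).

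The wild-type response to heat shock had the same direction with another order of genes. Of 26 members tested, 13 were lower and none higher, against 12% of the 4547 genes tested, and the median over members was -1.04. YEF3, which encodes the fungal ribosome-recycling elongation factor eEF3, ranged from -4.15 through a median of -2.02 to -0.92 over 9 arrays of 2 time courses (average over time points -2.60, SE 0.12, adjusted p = 3.12e-06). TIF3 (YPR163C), the helicase cofactor eIF4B, ranged from -3.37 through -1.72 to -0.70 (average -2.22, SE 0.12, adjusted p = 9.06e-06), and NIP1 from -3.31 through -1.48 to -0.44 on 8 arrays (average -2.02, SE 0.20, adjusted p = 0.000167). No wild-type array was above 0 for any of the 3. HYP2 (YEL034W), encoding eIF5A, did not follow the other elongation factors, with an average of 0.26 (SE 0.11, adjusted p = 0.246) and values from -0.39 to 0.53. EFB1 averaged -0.42 (SE 0.18, adjusted p = 0.154), with 0.76 at 5 min in course 2 and -0.82 at 5 min in course 1. Initiation factors were lowest at 15 min in course 1 (median -1.46) and at 10 min in course 2 (-1.51), elongation factors at 15 and 20 min (-1.87 and -1.83), and both groups were closer to 0 at 60 min than at these lows. The count of 13 fell to 7 without the 5 min array of course 1, and to 6 with every array scaled to 1 spread.

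In NaCl the direction was the same. Values here are averages over 15 to 90 min unless a time is given, so their sizes are not comparable with those at 30 min of H2O2. Of 33 members tested, 20 were lower and none higher, against 14.6% of 5003 genes, with a median of -0.60. The largest were those of TIF3, from -2.12 through a median of -1.04 to -0.68 over 7 arrays (average -1.18, SE 0.09, adjusted p = 0.000357), and of TIF4631, from -2.37 through -1.04 to -0.57 (average -1.15, SE 0.09, adjusted p = 0.000318). EFB1 ranged from -1.99 through -1.22 to 0.44 (average -0.97, SE 0.13, adjusted p = 0.00174), and was above 0 only at 15 min. At 30 min the median over initiation factors was -1.17 in course 1 and -1.18 in course 2, and that over elongation factors -0.98 and -1.19. At 30 min of H2O2 the medians over the genes tested were -1.16 for initiation factors and -1.61 for elongation factors. The paired genes moved together: TEF1 averaged -0.53 and TEF2 -0.48, TIF1 -0.68 and TIF2 -0.70, EFT1 -0.64 and EFT2 -0.70, and all 6 were called. Neither release factor was called (-0.05 for SUP45, YBR143C, and -0.19 for SUP35, YDR172W), although both were called higher without the 60 min array of course 2. Both of these genes stood apart on the wild-type 60 min array of course 1, at 1.73 and 2.10, as did TIF34 (YMR146C, 1.32) and PRT1 (YOR361C, 1.26), whereas the 60 min array of course 2 gave 0.08, -0.38, -0.66 and -0.36. The count of 20 members fell to 13 without the 60 min array of course 1, to 7 without the 30 min array of course 1, to 6 without that of course 2, and to 6 with arrays scaled to 1 spread.

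Stress relief ran the other way without reaching the threshold. None of the 32 members tested was called in wild-type cells, as was the case for every gene tested (0% of 5330). By limma, 20 of the 32 had an unadjusted p below 0.05, all of them higher, against 27.7% of all genes in either direction. The smallest adjusted p was 0.025, for RPG1 (YBR079C), the largest eIF3 subunit. RPG1 ranged from 0.35 through a median of 1.01 to 1.47 over 7 wild-type arrays (average 0.83, SE 0.10), all above 0. TIF35 (YDR429C), the eIF3g subunit, ranged from 0.36 through 0.95 to 1.38. The average over time points was above 0 for 31 of 32 members, with GCD6 at -0.08.

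**Figure D1:**
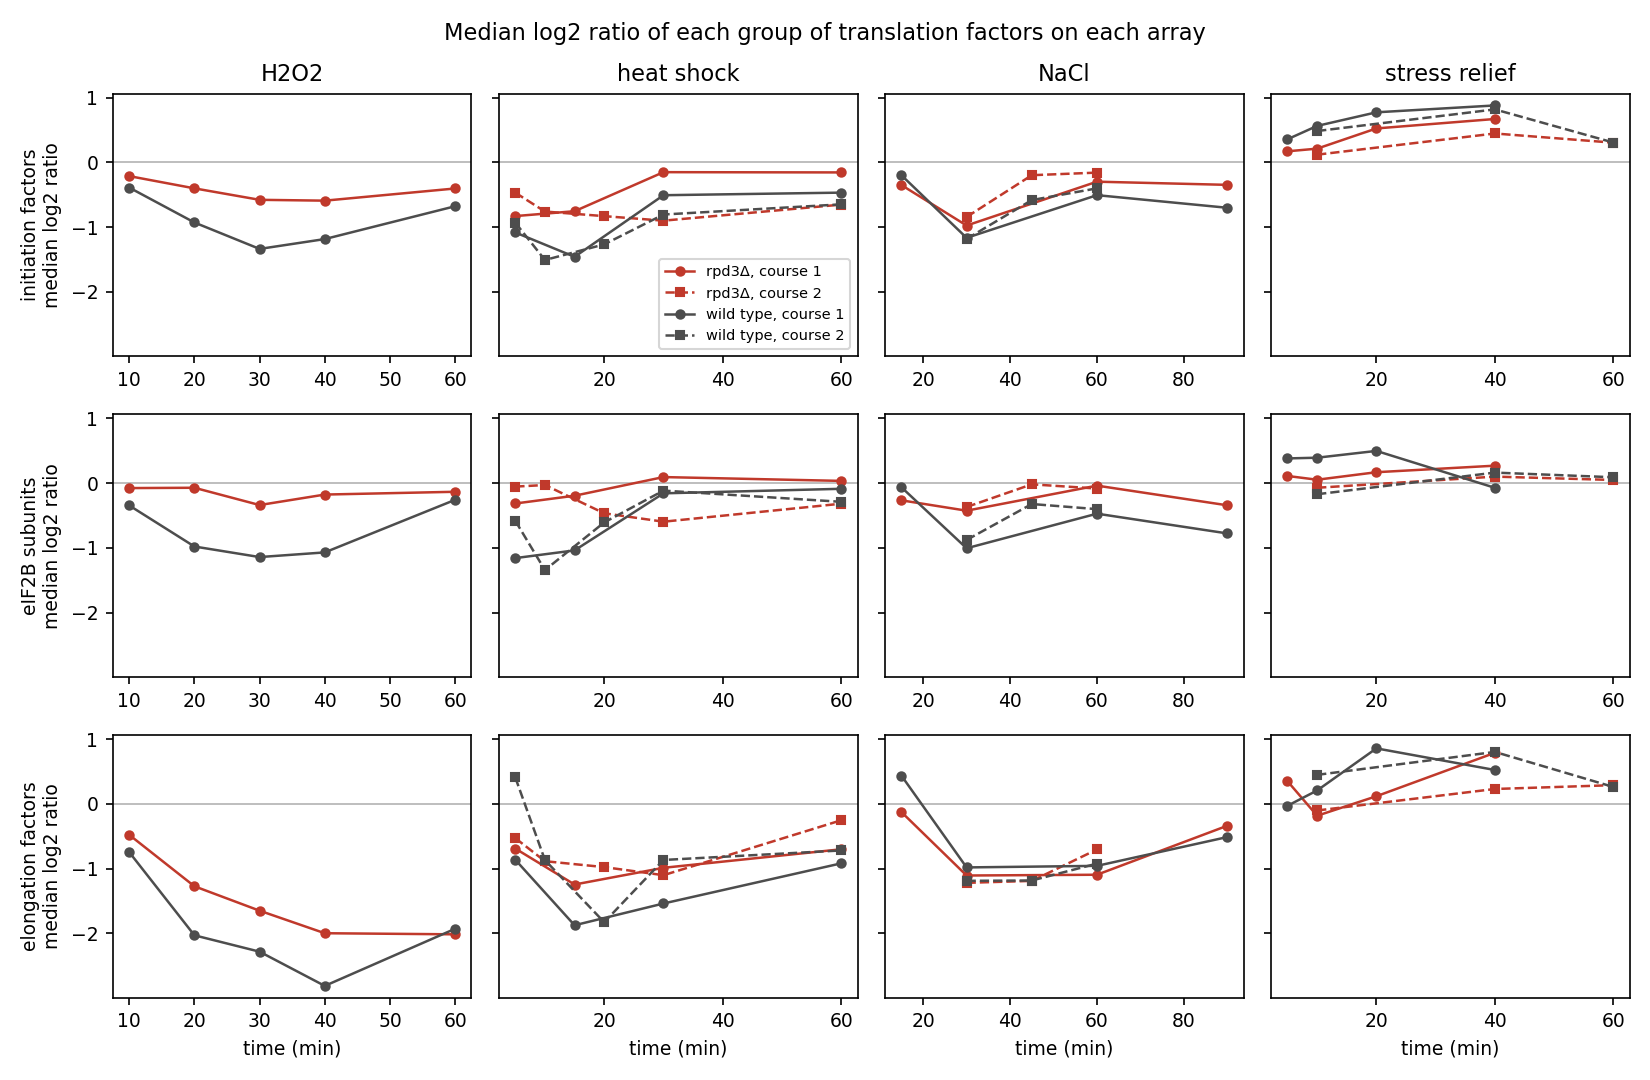
Median log2 ratio (stressed over unstressed) over the initiation factor genes, the eIF2B genes among them and the elongation factor genes on each array, against time in minutes, for wild-type (grey) and rpd3Δ (red) cells in the 2 time courses of each stress (1 course for H2O2). In H2O2 the eIF2B median reached -1.14 at 30 min in wild-type cells and -0.34 in rpd3Δ cells, while the elongation factor medians at 60 min were -1.93 and -2.01. The genes measured differed between arrays, above all for the elongation factors.

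At 30 min of H2O2, transcripts of 7 of the 23 initiation factors tested were less reduced in rpd3Δ than in wild-type cells, and no elongation factor was called different. Of 30 members tested, 7 were higher in rpd3Δ than in wild-type cells and none was lower, against 13.6% of all 5173 genes that were higher and 9.32% that were lower. All 7 were initiation factor genes, and the estimated difference was above 0 for each of the 23 initiation factors tested (2666 of 5173 for all genes), with a median of 0.57 against 0.02 over all genes. They were the eIF2B subunits GCD1, GCD2 (YGR083C) and GCD6, the eIF3 subunits PRT1 and NIP1, and TIF4631 and TIF5 (YPR041W), the last encoding the eIF2 GTPase activator eIF5.

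By role, the eIF2B subunits had the highest median difference (0.84, 3 of 5 called), which was not tested against the other roles. GCD1, the gamma subunit, was -0.90 at the lowest, -0.39 at the median and -0.22 at the highest of 8 wild-type arrays, and 0.15, 0.42 and 0.44 on the 3 rpd3Δ arrays. No wild-type value was above 0 and no rpd3Δ value below it, and the difference was 0.84 (SE 0.20, adjusted p = 0.00332). GCD2, the delta subunit, ranged from -1.66 through -1.07 to -0.36 in wild-type cells and was -0.35, 0.30 and 0.41 in rpd3Δ cells (difference 1.11, SE 0.31, adjusted p = 0.00894). The groups just failed to overlap, the lowest rpd3Δ array lying beside the highest wild-type one. GCD6, the catalytic epsilon subunit, ranged from -1.37 through -1.08 to -0.19 in wild-type cells and was -0.34, 0.12 and -0.16 in rpd3Δ cells (difference 0.88, SE 0.21, adjusted p = 0.00324), with wild-type replicate 8 inside the rpd3Δ range. The other subunits, GCD7 (YLR291C, beta) and GCN3 (YKR026C, the regulatory alpha subunit), differed by 0.47 (SE 0.26, adjusted p = 0.206) and 0.56 (SE 0.31, adjusted p = 0.215) and were not called. GCD1, GCD2 and GCD6 were also the only members called higher when all arrays were scaled to 1 spread, and GCD1 and GCD6 the only ones called without rpd3Δ replicate 2.

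Among the remaining initiation factors, PRT1, the eIF3b scaffold, ranged from -1.66 through -1.31 to -0.28 in wild-type cells and was -0.48, -0.08 and -0.28 in rpd3Δ cells (difference 0.98, SE 0.27, adjusted p = 0.00878). NIP1 ranged from -2.58 to -1.46 in wild-type cells and was -1.31, -1.22 and -1.33 in rpd3Δ cells (difference 0.82, SE 0.24, adjusted p = 0.0115). TIF4631 ranged from -2.47 to -1.29 against -1.15, -1.28 and -1.14 (difference 0.75, SE 0.27, adjusted p = 0.0427). TIF5 ranged from -1.45 through -1.22 to -0.77 against -0.64, -0.48 and -0.62 (difference 0.58, SE 0.19, adjusted p = 0.0311). For NIP1, TIF4631 and TIF5 the strains did not overlap, although all 3 rpd3Δ arrays were still below 0. In all, every rpd3Δ array lay above every wild-type array for 6 of the 30 members (GCD1, GCD2, NIP1, TIF4631, TIF5 and TIF35), against 15.4% of all genes tested. At the other end, TIF4632 (difference 0.01), HCR1 (0.01) and the cap-binding protein gene CDC33 (YOL139C, 0.11, SE 0.26, adjusted p = 0.818) were close to wild type.

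**Figure D2:**
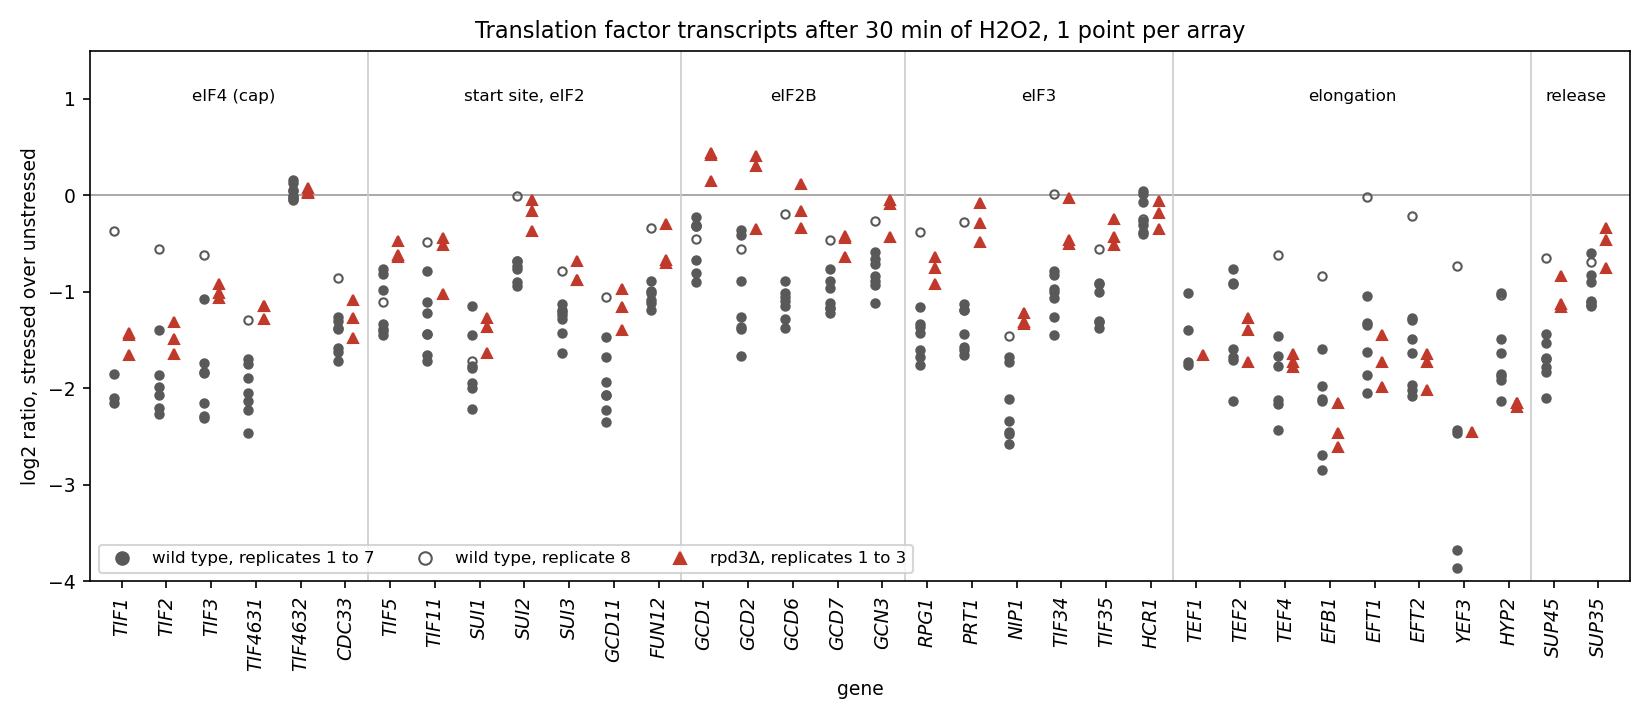
Log2 ratio (stressed over unstressed) of each of the 34 translation factor genes at 30 min of H2O2, 1 point per array, for wild-type cells (circles, replicate 8 open) and rpd3Δ cells (triangles), with genes ordered by role. The rpd3Δ values of GCD1 lie at 0.15 to 0.44, above all wild-type values, whereas those of HYP2 lie at -2.20 to -2.15, below all wild-type values.

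No elongation factor was called different between rpd3Δ and wild-type cells, and whether the elongation factors differed from the initiation factors in this was not tested. Among the 5 tested, none had an unadjusted p below 0.05 by limma, against 34.3% of all genes in either direction. Their median difference was -0.38, with 4 of 5 below 0 (over all 8 genes -0.24, and -0.15 without wild-type replicate 8), while the ribosomal protein genes had a median difference of 0.09 (1 of 132 called) and the ribosome biogenesis genes one of 1.90 (23 of 24 called). HYP2 (eIF5A) was -2.13 at the lowest, -1.74 at the median and -1.01 at the highest of 8 wild-type arrays and -2.15, -2.20 and -2.15 in rpd3Δ cells, the 1 tested member for which every rpd3Δ array was the lower (9.86% of all genes), with a difference of -0.55 (SE 0.32, adjusted p = 0.229). EFB1 gave -0.38 (SE 0.43), EFT1 -0.40 (SE 0.37), EFT2 -0.30 (SE 0.37) and TEF4 (YKL081W), the gamma subunit of eEF1B, 0.03 (SE 0.33). With all arrays scaled to 1 spread, EFB1, EFT1 and HYP2 were called lower in rpd3Δ cells (-1.22, -1.01 and -1.28), so that the calls were 3 higher and 3 lower in place of 7 and 0. The release factors SUP45 (eRF1) and SUP35 (the GTPase eRF3) gave 0.55 (SE 0.24, adjusted p = 0.0971) and 0.42 (SE 0.20, adjusted p = 0.136).

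Within single arrays, the median over initiation factors exceeded that over elongation factors by 0.15 to 0.95 on the 8 wild-type arrays (median 0.51), by 1.07, 1.295 and 1.34 on the rpd3Δ arrays, by 1.0, 0.92 and 0.995 on the msn2Δ msn4Δ rpd3Δ arrays and by 1.18, 0.73 and 0.46 on the pho23Δ arrays. All 3 rpd3Δ arrays lay above the wild-type range, as did 2 of the 3 triple mutant arrays and 1 of the 3 pho23Δ arrays. The other strains lay between -0.28 and 0.79, apart from 1 array of NSY429, the control of H4KQ, at 0.91. Arrays of each dye orientation were also compared on their own. With stressed cells in channel 1 (2 arrays per strain), 24 of 24 initiation factors and 6 of 7 elongation factors were higher in rpd3Δ cells (median differences 0.72 and 0.18). With stressed cells in channel 2 (1 rpd3Δ and 6 wild-type arrays), 19 of 24 and 0 of 7 were (0.44 and -0.63), with 2 of 6 in the eIF4 group. The sign for elongation factors therefore changed with the orientation, and that for the eIF2B subunits (0.84 and 0.76, 5 of 5 above 0 in each) did not. Without wild-type replicate 8, the number of members higher in rpd3Δ cells rose from 7 to 13, adding FUN12 (YAL035W), RPG1, TIF35, GCD11 (YER025W), TIF3 and SUP45. Without rpd3Δ replicate 2 it fell to 2, and without replicate 3 to 4.

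In the H2O2 time course, run once per strain and so described without a test, wild-type eIF2B medians at 10, 20, 30, 40 and 60 min were -0.34, -0.98, -1.14, -1.07 and -0.26. The corresponding rpd3Δ medians were -0.08, -0.07, -0.34, -0.18 and -0.13, and those of pho23Δ cells 0.04, -0.20, -0.06, -0.09 and -0.11. The wild-type curve thus dipped and came back, and the other 2 stayed near 0. The elongation factor median in wild-type cells was -0.74, -2.03, -2.28, -2.81 and -1.93, against -0.48, -1.27, -1.65, -1.996 and -2.01 in rpd3Δ cells, and the strains met at 60 min. These medians covered 5, 5, 6, 7 and 6 genes in wild-type cells and 6, 6, 7, 5 and 7 in rpd3Δ cells. They are therefore not over the same genes at each time. EFT1, at -2.87, was measured in the wild-type course at 40 min only. Averaged over the 5 times, rpd3Δ cells were above wild-type cells for 23 of 24 initiation factors (median difference 0.49) and for all 6 elongation factors measured (0.35). The rco1Δ course had an initiation factor median of 0.19, -0.08, -0.57, -1.01 and -1.53 at these times, the last being lower than any wild-type value of that course. In rpd3Δ cells GCD1 was -0.02 at 10 min and 0.73 at 60 min, and its last values in pho23Δ and wild-type cells were 0.74 and -0.17.

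In heat shock, 2 of 26 members were higher in rpd3Δ than in wild-type cells and none was lower, against 1.25% of 4547 genes that were higher. TIF3 (eIF4B) ranged from -3.37 through -1.72 to -0.70 over 9 wild-type arrays and from -2.37 through -0.62 to -0.16 over 9 rpd3Δ arrays, with an average difference of 1.23 (SE 0.17, adjusted p = 0.0359). YEF3 (eEF3) ranged from -4.15 through -2.02 to -0.92 and from -2.54 through -1.07 to -0.76 (difference 1.12, SE 0.17, adjusted p = 0.0496). The ranges overlapped for both, but at matched times in the same course the rpd3Δ value was the higher at all 9 time points for each gene. All 19 initiation factors tested had an average difference above 0 (median 0.48), and 3 of 5 elongation factors did (median 0.23). Within course 1 the median difference over initiation factors was 0.58, and within course 2 0.26. The unstressed rpd3Δ cells of course 2 were labelled as grown at 30°C, not 25°C, and neither gene was called without those arrays (adjusted p = 0.251 for TIF3 and 0.299 for YEF3). With the course number as a block, TIF3 was called (adjusted p = 0.0174) and YEF3 was not (adjusted p = 0.0522). Both calls were thin: leaving out any 1 of the 18 arrays in turn gave 0 or 1 call for 16 of them.

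In NaCl none of 33 members was called between rpd3Δ and wild-type cells (3.44% of genes were, in either direction). By limma, 4 had an unadjusted p below 0.05, all higher, against 17.9% of all genes in either direction. SUP35 was called lower without the wild-type 60 min array of course 2, and TIF5 higher without the rpd3Δ one. Each of these fits left the 60 min value of that strain to course 1. There SUP35 read 2.10 in wild-type cells and TIF5 3.07 in rpd3Δ cells, each apart from the other values of that gene and strain. The average difference was above 0 for 22 of 24 initiation factors (median 0.22) and 3 of 7 elongation factors (median -0.09), beside 1.11 for the biogenesis genes (10 of 24 called). Within courses the initiation factor median was 0.18 and 0.41, and the elongation factor median -0.28 and 0.15, so that only the first kept its sign. The dye orientation was the opposite in the 2 NaCl courses, and the course and the dye cannot be told apart. In stress relief none of 32 was called either, as for all genes (0%). By limma, 1 had an unadjusted p below 0.05, against 5.78% of all genes. The average difference was below 0 for 26 of 32 members (median -0.13, and -0.15 and -0.23 within the 2 courses), which is the opposite sign to that in heat shock.

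The strain comparisons at 30 min of H2O2 all use the same 8 wild-type arrays, and their values are therefore set side by side. In pho23Δ cells 4 of 30 members were higher and none lower, against 9.67% of genes that were higher: TIF35, PRT1, GCD2 and GCD6. TIF35 ranged from -1.38 through -1.003 to -0.56 on 7 wild-type arrays and was 0.15, -0.32 and -0.30 in pho23Δ cells, with no overlap (difference 0.90, SE 0.25, adjusted p = 0.0113). PRT1 was -0.23, -0.50 and -0.53 (difference 0.84, SE 0.27, adjusted p = 0.03) and GCD2 was -0.08, 0.19 and -0.44 (difference 0.87, SE 0.31, adjusted p = 0.0464). No member differed between pho23Δ and rpd3Δ cells, where 0.116% of all genes did. None had an unadjusted p below 0.05 by limma, against 4.81% of all genes. The 5 elongation factors tested were all less reduced in pho23Δ than in rpd3Δ cells, by a median of 0.42, without a call. The pho23Δ count rose to 11 without wild-type replicate 8, and was 0, 1 and 2 without pho23Δ replicates 1, 2 and 3 and 2 without wild-type replicate 5 or 6.

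In msn2Δ msn4Δ rpd3Δ cells 13 of 30 members were higher than in wild-type cells and none lower, against 16.2% of genes that were higher, 12 of them initiation factors and the other SUP35. The largest differences were those of NIP1 and 2 others: NIP1 was -0.84, -0.90 and -0.74 (difference 1.28, SE 0.24, adjusted p = 0.000134), GCD11, the GTP-binding gamma subunit of eIF2, differed by 1.10 (SE 0.28, adjusted p = 0.00393) and GCD6 by 1.10 (SE 0.21, adjusted p = 0.000277). All 3 NIP1 values lay above the wild-type maximum of -1.46. In msn2Δ msn4Δ cells with RPD3 intact, 1 of 30 members was higher (1.31% of genes were), the eIF2B alpha subunit GCN3, which differed by 1.10 (SE 0.31, adjusted p = 0.0418). Its 3 values of -0.56, 1.65 and -0.05 were far apart, and the call was lost without replicate 2 of that strain or without any 1 of wild-type replicates 1, 2, 4, 5, 6 and 7. The count was 5 without wild-type replicate 8, and 2 and 3 without replicates 1 and 3 of the double mutant. Set against msn2Δ msn4Δ cells, the triple mutant was higher for 1 of 30 members (5.96% of genes were), NIP1, with -1.52, -1.64 and -2.02 in the double and the values above in the triple mutant (difference 0.90, SE 0.28, adjusted p = 0.044). The 13 rose to 15 without wild-type replicate 8, and fell to 6 without replicate 1 of the triple mutant and to 7 without its replicate 2. The call of NIP1 against the double mutant was lost without replicate 2 or 3 of the double or any replicate of the triple mutant. With arrays scaled to 1 spread, the triple mutant had 5 members higher and 3 lower than wild type (EFB1, HYP2 and CDC33 being the lower ones), and pho23Δ had 1 and 1.

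No member was called in rco1Δ (0.561% of genes were, in either direction), ume6Δ (0.735%) or H4KQ cells (1.2%). By limma, 2, 8 and 2 of 30 members had an unadjusted p below 0.05 in these strains, against 8.58%, 17.8% and 16.3% of all genes. EFT2 was called in ume6Δ cells without wild-type replicate 8 or ume6Δ replicate 1, and 1 member in rco1Δ cells after centring each array on its median. The median difference over initiation factors was 0.10 in rco1Δ, 0.37 in ume6Δ and 0.17 in H4KQ cells, and over elongation factors 0.01, 0.57 and 0.01. ume6Δ replicate 4 gave an elongation factor median of 0.22, against -1.43 to -1.23 on the other 3 arrays. In H4KQ cells GCD2 was 0.15, 0.00 and 0.20, and in NSY429 cells -0.30, -0.66 and -0.79 (difference 0.70, SE 0.37, adjusted p = 0.345), so that the strains did not overlap. This was so for 6 of 30 members, against 14.3% of genes.

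**Figure D3:**
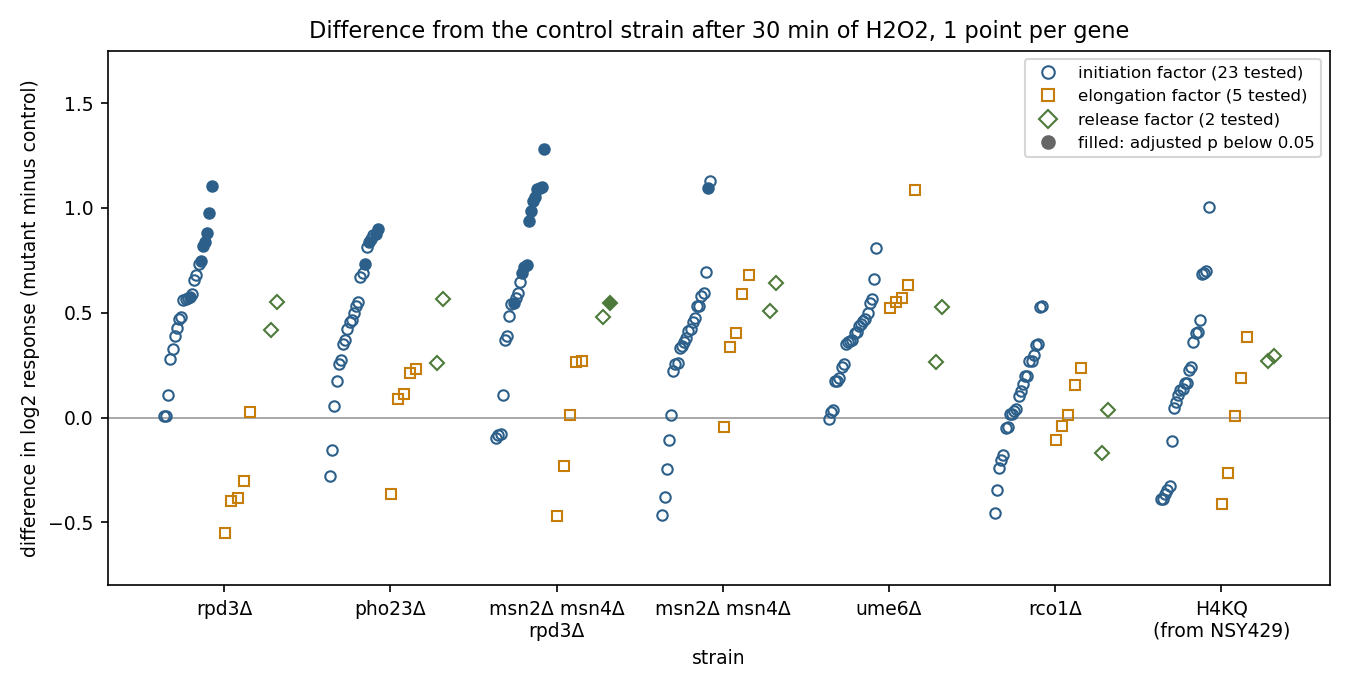
Difference in log2 response at 30 min of H2O2 between each mutant and its control, 1 point per gene tested, for initiation, elongation and release factors, with filled symbols for adjusted p below 0.05. The initiation factors of rpd3Δ cells reach 1.11 and have a median of 0.57, and the 5 elongation factors have a median of -0.38.

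Over all 106 stress arrays, the profiles of the members differed by role for elongation, eIF2B and eIF3 genes, and were mixed within the other roles. This is a description over 72 to 106 arrays per gene, which share strains, courses and unstressed cultures, and has no test. All 8 elongation factor genes correlated more closely with the ribosomal protein median than with the ribosome biogenesis median, and all 5 eIF2B and all 6 eIF3 genes the reverse. Among the eIF3 genes the gap was small for TIF34 (0.672 with biogenesis genes, 0.633 with ribosomal protein genes) and RPG1 (0.81 and 0.767). HCR1 correlated weakly with both (0.321 and 0.229). The eIF4 group divided 3 and 3, the release factors 1 and 1, and of the 7 start-site and eIF2 factors 2 were closer to the ribosomal protein genes and 5 to the biogenesis genes. YEF3 (0.919 with ribosomal protein genes, 0.775 with biogenesis genes) and EFT1 (0.906 and 0.706) were the most like the ribosomal protein genes. TIF3 (0.888 with biogenesis genes, 0.831 with ribosomal protein genes) and TIF35 (0.838 and 0.714) were the most like the biogenesis genes. GCD1 had the widest gap among the eIF2B genes (0.596 and 0.259), and TIF4632 followed neither list (0.071 and -0.016).

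Before stress, none of the 28 members tested differed between rpd3Δ and wild-type cells (3.5% of genes did, 0.972% being lower). By limma, 9 had an unadjusted p below 0.05, all lower in rpd3Δ cells, against 25.6% of all genes in either direction. The ratio of rpd3Δ over wild type was below 0 for 23 of 28 members (2233 of 4426 for all genes), with a median of -0.37, beside -0.53 for ribosomal protein genes and -0.02 for biogenesis genes. EFB1 was -0.76, -0.55 and -1.28 on the 3 arrays (mean -0.86, SE 0.18, adjusted p = 0.0798), EFT1 -0.59, -0.53 and -1.85, and SUP45 -0.48, -0.52 and -1.48. The third array, with the opposite dyes, gave a median over members of -0.71, against -0.30 and -0.27 on the other 2, and was the 1 that departed: SUI2 (YJR007W) was 0.74 on it and -0.31 and -0.21 on the others, and TIF11 (YMR260C) was -2.28 and -0.65 and -0.48. Without that array, 10 members were called lower, and 2 without either of the others. With dye as a term, 18 were called lower. The share of all genes called under these settings was not worked out, and 0.972% is no measure for these counts. Ratios of elongation factors were below 0 on every array that measured them.

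**Figure D4:**
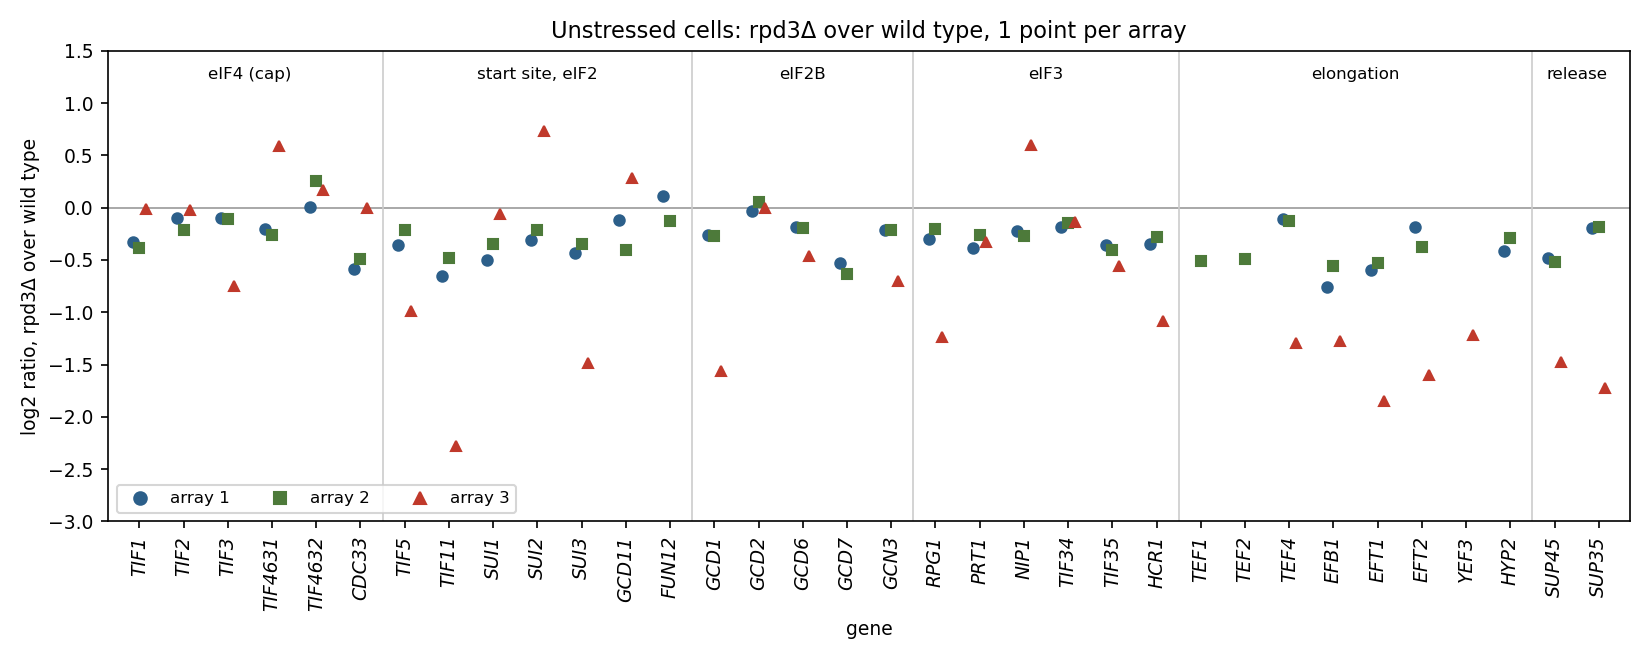
Log2 ratio of unstressed rpd3Δ over unstressed wild-type cells for each translation factor gene, 1 point per array. Arrays 1 and 2 lie between -0.76 and 0.26, and array 3 between -2.28 and 0.74.

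The H2O2 responses above are each relative to unstressed cells of the same strain. Adding the unstressed ratio to the difference in response gives, for the 27 members tested in both, the level in rpd3Δ relative to wild-type cells at 30 min of H2O2, as a description only. The sum was above 0 for 16 of 21 initiation factors (median 0.18), led by GCD2 (1.11) and NIP1 (0.85), and below 0 for all 4 elongation factors (median -1.13) and both release factors (median -0.28). With the third unstressed array left out, chosen after seeing the data, the elongation factors were still below 0 (median -0.77) but the release factors were not (0.045 for SUP45 and 0.23 for SUP35), and 17 of 21 initiation factors were above 0 (median 0.31).

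Of 24 genes that act beside the translation factors (regulators, modifying enzymes and related proteins), 23 were tested at 30 min of H2O2. In wild-type cells 14 were lower and 3 higher, where 33.2% of all genes were lower and 34.4% higher. Between rpd3Δ and wild-type cells 6 were higher and 1 lower, where 13.6% and 9.32% of all genes were. The largest of these differences were those of DPH1, DPH2 and DBP1. DPH1, needed for the first step of diphthamide formation on eEF2, ranged from -2.49 through -2.10 to -1.32 on 8 wild-type arrays and was 0.16, 0.39 and 0.34 in rpd3Δ cells (difference 2.37, SE 0.31, adjusted p = 5.91e-06). DPH2, its partner, was -0.44, -0.73 and -0.49 in rpd3Δ cells (difference 1.59, SE 0.31, adjusted p = 0.000455) and DPH5, the methyltransferase of the pathway, -0.45, -0.31 and -0.39 (difference 1.00, SE 0.28, adjusted p = 0.0103). DYS1, which begins the hypusine modification of eIF5A, ranged from -1.29 to -0.10 in wild-type cells and was -0.64, 0.74 and 0.51 in rpd3Δ cells (difference 1.16, SE 0.27, adjusted p = 0.00215). For the DPH genes the strains did not overlap, whereas EFT1, EFT2 and HYP2, which encode the modified proteins, were not called and had differences below 0.

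DBP1, a DEAD-box helicase gene related to the initiation helicase gene DED1, went the other way. It ranged from 1.05 through 1.63 to 2.05 on 7 wild-type arrays and was 0.34, -0.11 and -0.02 in rpd3Δ cells (difference -1.48, SE 0.34, adjusted p = 0.00207). DED1 itself, singled out after its values were seen, fell in wild-type cells (mean -1.21, SE 0.20, adjusted p = 3.1e-06). In rpd3Δ cells DED1 was -1.31, -3.06 and -1.10 and was not called. Its median of -1.31 lay close to the wild-type median of -1.24, and its lower mean rested on the array at -3.06. GCN4, the transcription factor whose mRNA is translated when eIF2B activity is low, fell in wild-type cells (mean -1.13, SE 0.14, adjusted p = 1.87e-08) and differed by 0.06 (SE 0.26, adjusted p = 0.907) in rpd3Δ cells.

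Some conditions were measured once and have no test. After 15 min of heat shock the median over initiation factors was -1.71 with the solvent DMSO and -0.94 with the deacetylase inhibitor trichostatin A (10 µM), and that over eIF2B subunits was -1.33 and -0.56. PRT1 was -1.88 with DMSO and -0.51 with trichostatin A, and GCD2 -1.30 and -0.18. At 5 and 30 min the initiation factor medians were -0.83 and -0.82 with DMSO and -0.68 and -0.76 with the inhibitor. TEF4 read 2.62 on the trichostatin A array at 15 min, against -0.62 at 5 min and -1.97 at 30 min, and was the outlying value of that array. At 30 min of H2O2, rpd3Δ cells carrying plasmid-borne RPD3 had an eIF2B median of -0.85 and those carrying the catalytically inactive allele rpd3-H150:151A one of -0.23, and at 20 min of heat shock the values were -0.80 and -0.44, with -0.21 for the empty vector. Single eIF2B genes were not alike in H2O2: GCD7 read 1.72 and GCN3 0.54 with plasmid-borne RPD3, above their -0.39 and 0.03 with the inactive allele. The eIF2 subunits GCD11 (1.40) and SUI3 (0.72) were also above 0 on the plasmid-borne RPD3 array, against -1.37 and -0.53 with the inactive allele. The initiation factor medians at 30 min of H2O2 were close, -0.85 and -0.79.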

How the data were processed

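The deposited table holds log2 ratios of 2-colour arrays, processed by the authors before deposition. Their normalization and the direction of the ratio were not given in the sources used here, and no array was turned. No column lacked a sample. Analyses used R 4.3.3 and limma 3.58.1 (moderated variances) and Python 3.11.15. At 30 min of H2O2 each strain's mean was fitted and strains were contrasted. Time courses were fitted with a term for each time point, and an F test over all time points of the 2 courses gave p. Some of these, such as 10, 15 and 20 min of heat shock, were measured in 1 course only. The estimate printed is the average over time points. Genes with values on fewer than 80% of the arrays entering a fit were not tested. P-values were adjusted by Benjamini-Hochberg over all genes tested, with thresholds of 0.01 in wild-type cells and 0.05 between strains. The procedure was tested on simulated data. Alternatives were centring, scaling each array to 1 median absolute deviation (1 spread), other filters, a dye term, course or replicate number as a block, the mean over time points and leaving out each array. Leaving out the rpd3Δ heat-shock course labelled 30°C was chosen after seeing the data. The 34 members and all lists were chosen with earlier results of these data known. Members named with full values are the 3 largest called per comparison and direction, all called between rpd3Δ and wild type in H2O2, and paralogue pairs. The study describes the H2O2 averages of wild-type, rpd3Δ, pho23Δ and H4KQ cells as coming from biological replicates. Its methods list 2 time courses with unlike sampling times for each of heat shock, NaCl and relief, and mention replicate experiments. The main fit took arrays within a course as independent, where limma put their correlation at 0.158 in heat shock, 0.208 in NaCl and 0.537 in relief. For the remaining groups neither the labels nor the methods say whether replicates came from separate cultures. P-values then measure the spread between these arrays, which may be technical. In heat shock the replicate number is that of the time course, and arrays of the same course and time deviated together in both strains (correlations of 0.144 to 0.414 over 3 pairs). With 2 arrays per strain and time, the deviations of course 2 mirror those of course 1. The number was therefore read as pairing the strains there. The main fit nevertheless has no term for it, and the calls with it as a block are given as an alternative. The table gives no depth, and the number of arrays limits the precision. Of the 109 arrays, 82 entered replicated fits. Promoter and protein sequences were not used here.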

Additional observations from a re-analysis of the deposited data

Results flagged for a closer look

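Of 65 sets of 4 to 10 wild-type or ume6Δ values at 30 min of H2O2, 11 held a value far from the others, where chance flags about 1 in 20. Wild-type replicate 8 was that value in 9 of them, closer to 0 than the rest in each: TIF1 at -0.37, SUI2 at -0.01, FUN12 at -0.34, GCD6 at -0.19, RPG1 at -0.38, PRT1 at -0.28, TIF34 at 0.01, EFT2 at -0.21 and SUP45 at -0.65. The other 2 were those of ume6Δ replicate 4, with SUI2 at 0.12 and TEF1 at 0.53.

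Strain differences past the threshold, all higher in the first strain, were flagged for 28 results. In heat shock, rpd3Δ differed from wild type for TIF3 by 1.23 and YEF3 by 1.12. In H2O2, rpd3Δ differed from wild type for TIF4631 by 0.75, TIF5 by 0.58, GCD1 by 0.84, GCD2 by 1.11, GCD6 by 0.88, PRT1 by 0.98 and NIP1 by 0.82. In pho23Δ cells the differences were 0.87 for GCD2, 0.73 for GCD6, 0.84 for PRT1 and 0.90 for TIF35, and in msn2Δ msn4Δ cells 1.10 for GCN3. In msn2Δ msn4Δ rpd3Δ cells they were 0.94 for TIF3, 0.99 for TIF4631, 1.10 for GCD11, 0.55 for FUN12, 1.09 for GCD2, 1.10 for GCD6, 0.72 for GCD7, 1.04 for GCN3, 0.69 for RPG1, 1.05 for PRT1, 1.28 for NIP1, 0.73 for TIF35 and 0.54 for SUP35, and against msn2Δ msn4Δ cells 0.90 for NIP1. GCD2 had opposite signs in all arrays of H4KQ (mean 0.12) and NSY429 cells (mean -0.58), a difference that limma did not call (adjusted p = 0.345).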

How the results depend on the processing

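Of the alternatives run for 89 single-gene results, 1096 kept direction and side of the threshold, 284 kept direction only and 0 turned direction. The causes of the changes below were not tested.

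Counts of members called moved as follows. The share of all genes called was not worked out under the alternatives. Scaling arrays to 1 spread gave 6 in wild-type heat shock and NaCl, 0 between rpd3Δ and wild type in heat shock, 2 in pho23Δ, 0 in msn2Δ msn4Δ, 8 in the triple mutant and, between it and the double mutant, 3 lower (EFB1, HYP2 and CDC33) and none higher, NIP1 no longer being called. Centring gave 1 between rpd3Δ and wild type in heat shock, 1 in rco1Δ, 2 in msn2Δ msn4Δ and 0 between the triple and double mutants. A filter at 50% or none gave 0 between rpd3Δ and wild type in heat shock, and no filter 13 in wild-type NaCl and 0 between the triple and double mutants. The mean over time points gave 22 in wild-type heat shock, 4 and 2 between rpd3Δ and wild type in heat shock and NaCl, and 5 in wild-type relief. The course as a random block gave 8 and 13 in wild-type heat shock and NaCl and 0 between rpd3Δ and wild type in heat shock. A dye term gave 0 in msn2Δ msn4Δ and 18 in unstressed cells. Leaving out the 30°C course, chosen after seeing the data, gave 0 between rpd3Δ and wild type in heat shock.

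Leaving out 1 array at a time, counts ran from 7 to 12 and 0 to 3 in heat shock (wild type, then rpd3Δ against wild type), 6 to 22 and 0 to 1 in NaCl, and stayed 0 in relief and 28 in wild-type H2O2. Against wild type in H2O2 they ran from 2 to 13 in rpd3Δ, 0 to 11 in pho23Δ, 0 to 1 in ume6Δ, 0 to 5 in msn2Δ msn4Δ and 6 to 15 in the triple mutant, from 0 to 1 between the triple and double mutants, and from 2 to 10 in unstressed cells. They stayed 0 in rco1Δ, in H4KQ and between pho23Δ and rpd3Δ.

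Outside heat shock, replicate numbers were treated as numbers only: same-numbered deviations correlated between -0.388 and 0.259 over 22 pairs in H2O2, and at 0.144 and 0.217 in NaCl and 0.527 and 0.589 in relief, with only 2 pairs each. With the replicate number as a block, the counts were 14, 16, 2 and 26 in wild-type heat shock, NaCl, relief (RPG1 and TIF35, higher) and H2O2, and 1, 0, 0 and 10 between rpd3Δ and wild type in these stresses. They were 6 in pho23Δ, 0 in rco1Δ and ume6Δ, 3 in msn2Δ msn4Δ, 13 in the triple mutant and 1 between it and the double mutant.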
